A study of Mus musculus with 6 samples.

Results

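The genes described here encode the proteins of the cytosolic ribosome, as they were counted in small RNA libraries of whole mouse hearts. The members were the protein-coding genes of the table whose symbol begins with Rpl or Rps and a digit, or is Rpsa, Rplp0, Rplp1 or Rplp2, without the Rps6k kinases and the -ps pseudogenes. This rule found 42 of the 10065 genes of the table. Of these, 25 encode proteins of the large subunit and 16 proteins of the small subunit. The remaining member, Rps19bp1, matches the rule by its name only, since it encodes a protein that binds Rps19 and is no ribosomal protein. Small RNA was sequenced from hearts at postnatal day 6, from 3 ADAR2-/- and 3 wild type mice. The mice were female siblings on the SV129 background. By the methods and the extraction notes both genotypes carried the pre-edited glutamate receptor allele Gria2 R/R, which rescues mice without ADAR2 from early death. The genotype labels name this allele for the ADAR2-/- samples alone. ADAR2, encoded by Adarb1, is an enzyme that converts adenosine to inosine in double-stranded RNA.

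The value used is the authors' mean normalized count over all samples, called the mean below. The table analysed here gives it once per gene, so it shows no value per heart, no SD and not the depth of each library, and the genotypes were not compared. Each level below therefore describes the pooled hearts, and no difference between genes was tested. The lowest mean in the table was 1.09, the median 6.65 and the highest 4563, and 64.0% of all rows had a mean under 10. Marker genes of several cell types were looked up. The presence of a row cannot decide the tissue, since it varied with gene span. Of all annotated protein-coding genes 38.1% had a row, and of those with a span of at most 10 kb 6.89%. Of 7 cardiomyocyte markers 6 had a row, from 4.82 for Tnnt2 to 943 for Myh7, while Nppa had none. None of 4 hepatocyte markers had a row. All 4 neuron markers had one, from 5.45 for Gad1 to 173 for Rbfox3. Rows were also found for 4 of 5 fibroblast markers (5.40 to 44.8), 4 of 4 endothelial markers (2.59 to 11.6) and 4 of 5 erythroid markers (2.45 to 4.85). Whether reads of any small RNA gene inside a marker gene were counted for it was not tested. The part of each cell type in the ribosomal protein rows was not tested either.

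The ribosome is built from a large subunit, which joins amino acids into a chain, and a small subunit, which reads the mRNA. Its proteins are made from short, very active genes, and each protein is needed in about the same amount. Many of these genes also carry small nucleolar RNA (snoRNA) genes in their introns, which are released when the spliced intron is trimmed. Most such snoRNAs guide the chemical modification of ribosomal RNA, and the box C/D class guides methylation of the ribose. A library of short RNA can thus hold fragments of the ribosomal protein mRNA as well as intronic snoRNAs of the same gene. Ribosomal protein mRNAs have also given rise to many processed pseudogenes, which repeat their sequence elsewhere in the genome.

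The annotation placed 45 snoRNA genes inside the members, and 7 of them had a row of their own. The sequences of 6 are shown because they lie within members whose levels are described below. They are the annotated genes of GENCODE M21 (GRCm38) and are written 5′ to 3′ on the strand of the RNA. Capitals mark the first TGATG, the letters of the C box, and the last CTGA, the letters of the D box. These letters were searched on the RNA strand only.
Gm22455 (in Rpl4, chr9:64177123-64177193, plus strand): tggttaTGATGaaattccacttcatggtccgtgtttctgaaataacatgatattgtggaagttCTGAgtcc
Snord32a (in Rpl13a, chr7:45127382-45127464, minus strand): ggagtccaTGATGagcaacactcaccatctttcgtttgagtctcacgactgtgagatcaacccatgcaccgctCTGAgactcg
Snord33 (in Rpl13a, chr7:45126864-45126947, minus strand): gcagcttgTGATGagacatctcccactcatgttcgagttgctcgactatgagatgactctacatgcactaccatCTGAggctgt
Snord34 (in Rpl13a, chr7:45126601-45126670, minus strand): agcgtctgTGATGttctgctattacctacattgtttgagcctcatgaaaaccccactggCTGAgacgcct
Snord42a (in Rpl23a, chr11:78181299-78181363, minus strand): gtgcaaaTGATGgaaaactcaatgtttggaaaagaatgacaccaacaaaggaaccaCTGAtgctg
Gm24016 (in Rps20, chr4:3835079-3835146, minus strand): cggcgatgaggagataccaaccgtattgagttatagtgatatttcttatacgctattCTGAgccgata
TGATG was found in 5 of the 6 sequences, Gm24016 being the exception, and CTGA in all 6. Among the 1507 annotated mouse snoRNAs, 35.9% held TGATG, 79.5% held CTGA and 30.3% held both in this order. A match of these letters is a description and not a mapped box. None of the 6 genes overlapped an exon of a coding transcript of its host. Of these genes 3, namely Gm22455, Snord33 and Gm24016, overlapped an exon of another transcript of the host that is not classed as protein-coding.

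Among genes with a row, the ribosomal protein genes had low means. Their median was 3.55 (range 1.75 to 56.5), compared with 6.78 for the 8409 protein-coding genes that matched the annotation. A mean above that median was found for 5 of the 42 members, and a mean of at least 10 for 3. Together the members held a summed mean of 249.98, which is 0.117% of the 214408 over all rows. The large subunit held 0.0747% and the small subunit 0.0393%. Rpl4 alone gave 22.6% of the members' sum, and the 3 highest members gave 36.3%.

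**Figure D1:**
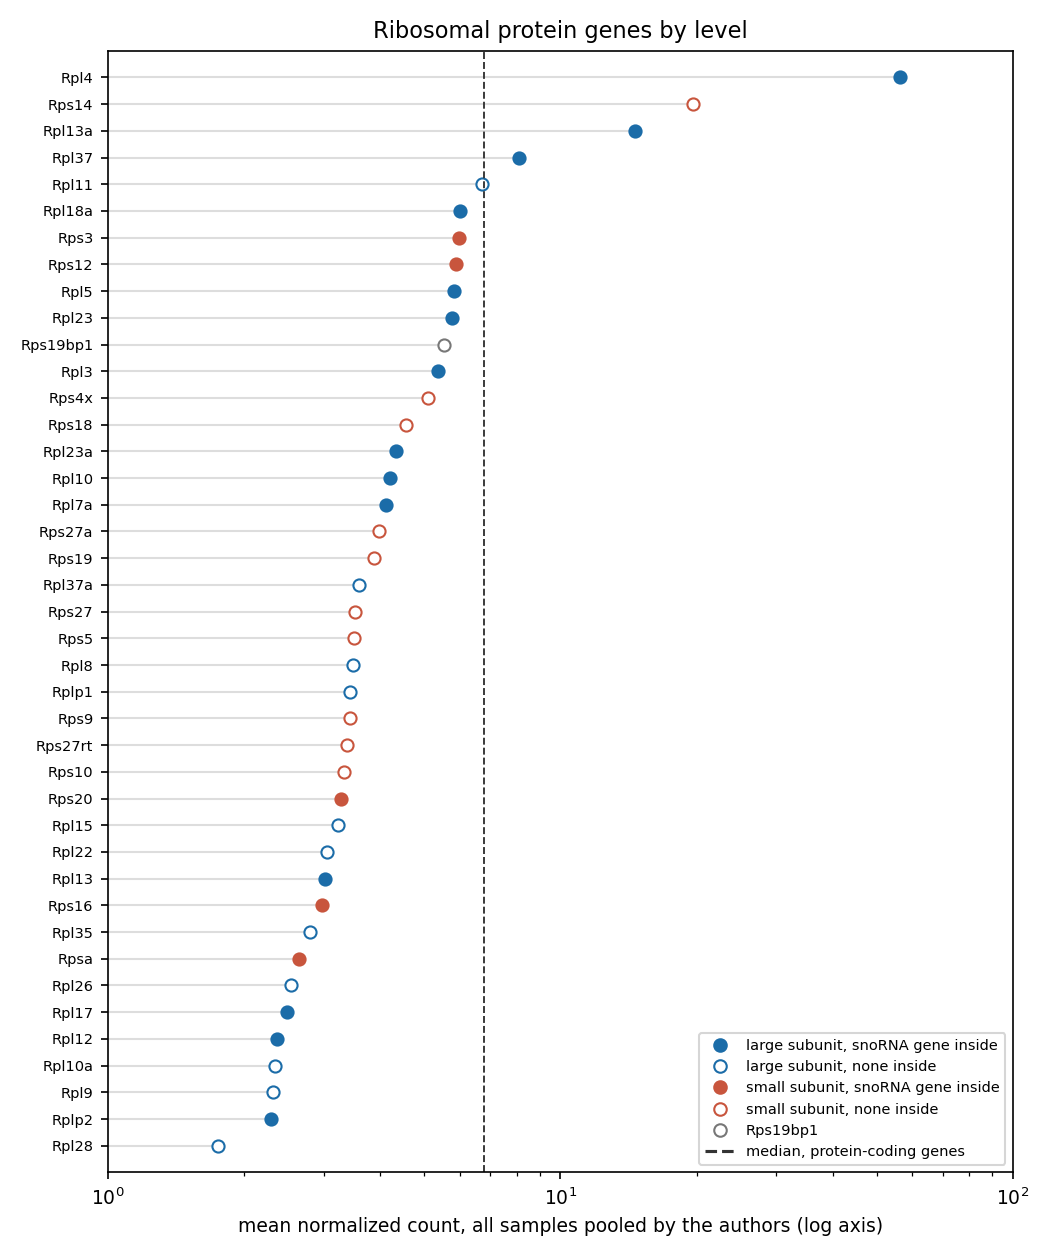
Mean normalized count of 41 of the 42 members on a log axis, 1 point per gene, blue for the large and red for the small subunit, filled where an annotated snoRNA gene lies inside. The dashed line is the protein-coding median of 6.78; Rpl4 (56.5), Rps14 (19.6), Rpl13a (14.6) and Rpl37 (8.10) lie above it.

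The highest mean belonged to Rpl4 (ENSMUSG00000032399, chr9:64173375-64178666, plus strand), a large subunit protein that lines the tunnel through which the new peptide leaves. Its mean of 56.5 was higher than that of 93.9% of protein-coding genes. Rps14 (ENSMUSG00000024608), a protein of the small subunit platform, followed with a mean of 19.6. Rpl13a (ENSMUSG00000074129, chr7:45125558-45128761, minus strand) encodes a large subunit protein also known as part of a complex that silences translation of inflammatory mRNAs. It had a mean of 14.6. Below these 3 the levels lay close together, down to 1.75 for Rpl28, and all were under 10.

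Levels of different genes were compared per kb of exon, using the union of all annotated exons. On this scale the median of the members was 2.04 per kb and that of protein-coding genes 1.36 per kb, a ratio of 1.5, and 30 of 42 members lay above the protein-coding median. Rpl4 was again the highest with 28.1 per kb of exon. It was followed by Rps27rt with 9.04, Rps14 with 8.20, Rpl13a with 6.93 and Rplp1 with 6.89 per kb of exon. Rps19bp1 had 5.11 per kb of exon, and Rpl23a, a protein at the exit of the peptide tunnel, 5.10. The 5 lowest members per kb of exon were Rpsa (0.833), Rps19 (0.825), Rps20 (0.804), Rpl9 (0.753) and Rpl12 (0.658). Rpsa is also known as a laminin receptor, RPS19 is the gene most often mutated in Diamond-Blackfan anaemia, and Rpl12 lies at the base of the stalk of the large subunit.

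The members are short genes, with a median span of 3.64 kb from the first to the last annotated base, compared with 57.2 kb for protein-coding genes. Per kb of span all 42 members lay above the protein-coding median, with a median of 1.09 per kb against 0.118 per kb. This is no finding about the members, since for 39 of them even the lowest mean listed in the table, 1.09, would have given a value above that median. Per kb of exon the same holds for 2 members, Rps27rt and Rplp1, whose exons cover 0.374 and 0.499 kb. Their high place per kb of exon goes with means of 3.38 and 3.44, under the members' median of 3.55. A comparison with genes of like span was therefore added. Among the 564 protein-coding rows with a span of at most 10 kb the median mean was 4.37, and the 39 members in this class had a median of 3.50, at percentile 36.4 of these rows. Of these members 12 lay above 4.37. Only genes with a row enter this comparison, and the 2 sides differ in how many had one. A row was present for 47.6% of the 82 genes of the rule in this class. For the 7854 annotated protein-coding genes of at most 10 kb the share was 6.89%. The percentile therefore does not place the members among all short genes. Per kb of exon the short genes had a median of 2.06 per kb and the 39 members one of 2.02 per kb.

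**Figure D2:**
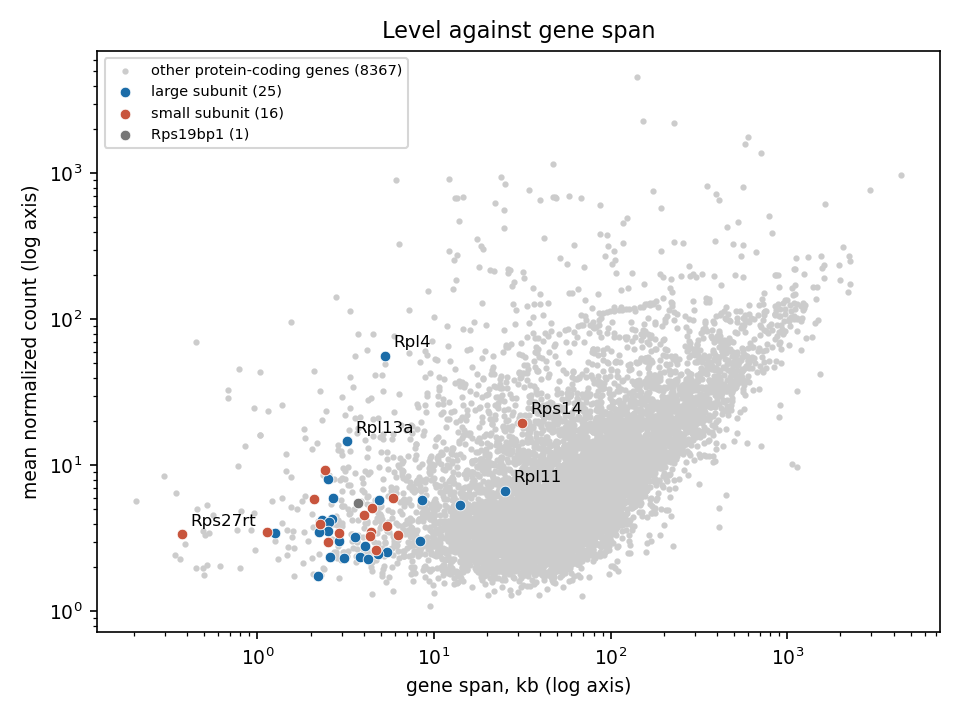
Mean normalized count against gene span in kb, both on log axes, 1 point per gene, with other protein-coding genes in grey, the large subunit in blue, the small subunit in red and Rps19bp1 in dark grey. The members sit at the short end, with a median span of 3.64 kb, and only Rps14 (31.4 kb), Rpl11 (25.2 kb) and Rpl3 (14.1 kb) exceed 10 kb.

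Across protein-coding genes the mean was higher in longer genes. Over 8409 genes the Spearman rho of the mean was 0.56 with span and 0.27 with exon length. Across the 42 members the rho was 0.13 with span and -0.02 with exon length. Of the members 39 have a span of at most 10 kb, so their rho covers a narrower range of spans. Genes share libraries and are not independent replicates, so these values are descriptions.

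The rule matched 86 annotated genes, of which 42 (48.8%) had a row. The share was close in both subunits, with 25 of 52 large subunit genes (48.1%) and 16 of 33 small subunit genes (48.5%). Of all 22028 annotated protein-coding genes 38.1% had a row, and of the 7854 with a span of at most 10 kb 6.89%. For the 82 genes of the rule in that class the share was 47.6%. The 44 genes without a row, Rplp0 and Rps6 among them, were not analysed here.

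The 2 subunits had close levels. The median mean was 3.48 for the 25 large subunit genes (1.75 to 56.5) and 3.69 for the 16 small subunit genes (2.64 to 19.6), a ratio of 0.94. Per kb of exon the medians were 2.05 and 2.02 per kb, a ratio of 1.02, and per kb of span the ratio was 0.80. The ranges overlapped on each scale.

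Within the large subunit, the genes were grouped by place in the ribosome. Of the 3 P-stalk proteins, which recruit the translation factors, Rplp1 had a mean of 3.44 and Rplp2 one of 2.29. Per kb of exon Rplp1 had 6.89 and Rplp2 1.10. The mean of Rplp2 was the same as that of 2 unrelated genes, Hrk and Klf15. Such equal means occurred in 2.42% of protein-coding rows. Rpl5 and Rpl11 form a particle with 5S ribosomal RNA, which is known to bind Mdm2 when ribosome assembly fails. Their means were 5.83 and 6.70, or 1.49 and 2.49 per kb of exon.

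Of 8 genes listed for the peptide exit tunnel 5 had a row, with a median of 2.25 per kb of exon. Rpl4 (28.1 per kb) and Rpl23a (5.10) were the highest of them, and Rpl17 (1.88) and Rpl26 (1.76) the lowest. All 3 genes listed around the peptidyl transferase centre, where the peptide bond is made, had a row. Rpl8 had a mean of 3.48, Rpl10 one of 4.21 and Rpl3 one of 5.37, and per kb of exon these were 2.56, 2.05 and 1.69. Rpl4 thus stood apart among the tunnel genes, while the 3 peptidyl transferase genes lay within a narrow range.

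In the small subunit, 2 of 5 genes listed for the path of the mRNA had a row. Rps3, at the mRNA entry, had a mean of 5.96 and 1.33 per kb of exon, and Rpsa, near the exit, 2.64 and 0.833 per kb of exon. Of 10 paralogs listed, such as the muscle gene Rpl3l, only Rps27rt had a row. Rps27rt is an intronless copy of Rps27 of 374 bases (chr9:114982366-114982739, minus strand). The copy had a mean of 3.38 and Rps27 one of 3.51, while per kb of exon they had 9.04 and 3.37. Of the 22-base stretches of Rps27rt 94.2% also occur in Rps27, so reads of these stretches cannot be placed on either gene. Rps27rt also lies within Osbpl10 on the opposite strand, which had a mean of 25.3.

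Members with a snoRNA gene inside had the higher median mean. An annotated snoRNA lay inside 20 members, with a median mean of 4.85 (2.29 to 56.5), and inside none of the other 22, with a median of 3.46 (1.75 to 19.6), a ratio of 1.40. Of the 10 highest members 8 were snoRNA hosts, Rps14 and Rpl11 being the exceptions. Of the 21 highest members 13 were hosts, and of the 21 lowest 7. The ranges of the hosts and the other members overlapped. The lower quartile was 3.01 in hosts and 3.09 in the others, and the upper quartile 5.97 and 3.95. The difference thus lay in the upper part of the levels. The medians had the same direction in both subunits, with 4.85 in 14 large subunit hosts against 3.04 in 11 others, and 4.59 in 6 small subunit hosts against 3.69 in 10 others.

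Over all protein-coding genes, 207 hosts, the 20 host members included, had a median of 8.64 and the other 8202 genes one of 6.75. Without the members, 187 hosts had a median of 9.42. Per kb of exon the ratio of host members to other members was 1.08, and per kb of span it was 1.3. Over all protein-coding genes the medians per kb of exon were 1.67 in hosts and 1.35 in the others. Whether the members differ from other genes in this respect was not tested. Within a span of at most 10 kb, 19 host members had a median of 4.32 and 20 others one of 3.43, while over all short protein-coding genes the values were 4.56 in 35 hosts and 4.37 in 529 others. The host members were 19 of those 35. A row was present for 20 of the 30 annotated hosts of the rule (66.7%) and for 22 of the 56 other genes (39.3%). Of all 279 annotated protein-coding hosts 73.5% had a row, and of the 60 with a span of at most 10 kb 33 (55%). Across the 42 members the Spearman rho between the mean and the number of annotated snoRNA genes inside was 0.35.

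**Figure D3:**
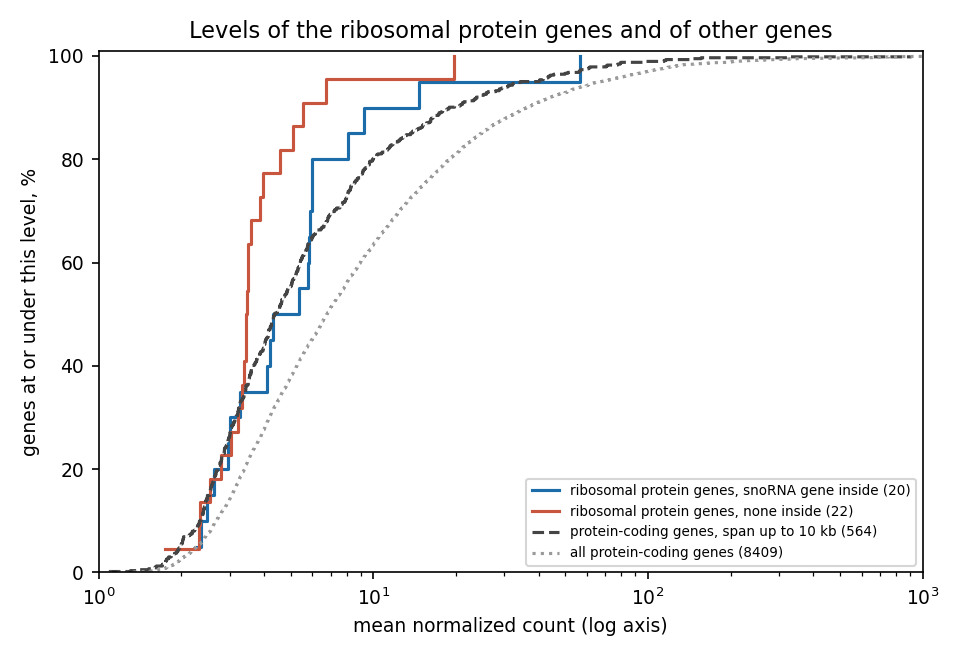
Cumulative share of genes in percent against mean normalized count on a log axis for the 20 members with a snoRNA gene inside, the 22 without, the 564 protein-coding genes of at most 10 kb and all 8409 protein-coding genes. The curve of members without a snoRNA gene crosses 50% first (median 3.46). That of members with one crosses it near the short genes (4.85 and 4.37), and that of all protein-coding genes last (6.78). The lower quartiles are in another order, with 2.94 in the short genes, 3.01 in members with a snoRNA gene and 3.09 in those without.

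In 4 members the level of an inner snoRNA row is set beside that of its host. The row of Gm22455 had a mean of 13.2, which is 23.4% of the 56.5 of Rpl4. It is 1 of 5 snoRNA genes annotated in Rpl4 and shares runs of 19 and 17 bases with Gm22571 and Gm23344 in the same gene, neither of which had a row. Rpl13a holds 4 annotated snoRNA genes, and those of the shown sequences Snord32a, Snord33 and Snord34 had means of 2.85, 4.25 and 2.73. Their sum of 9.83 is 67.2% of the Rpl13a mean. Snord32a and Snord33 are box C/D snoRNAs that are also known for a part in the response of cells to excess fatty acids. A miRNA row, Mir5121 with a mean of 3.82, overlaps Snord33 and was left out of this sum.

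Snord42a had 2.83, or 65.4% of the 4.32 of Rpl23a, and it shares a run of 18 bases with Snord42b in the same gene. Gm24016 had 1.68, or 51.1% of the 3.28 of Rps20. In 3 of these 4 hosts the snoRNA rows thus came to more than 50% of the mean of the gene around them, while in Rpl4 they came to less. For Rpl13a this holds only for the sum of 3 rows, which alone came to 18.7% to 29.1%. Over all protein-coding hosts, 7 of 24 single snoRNA rows came to at least 50% of their host. Sums per host were not computed for hosts outside the members.

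**Figure D4:**
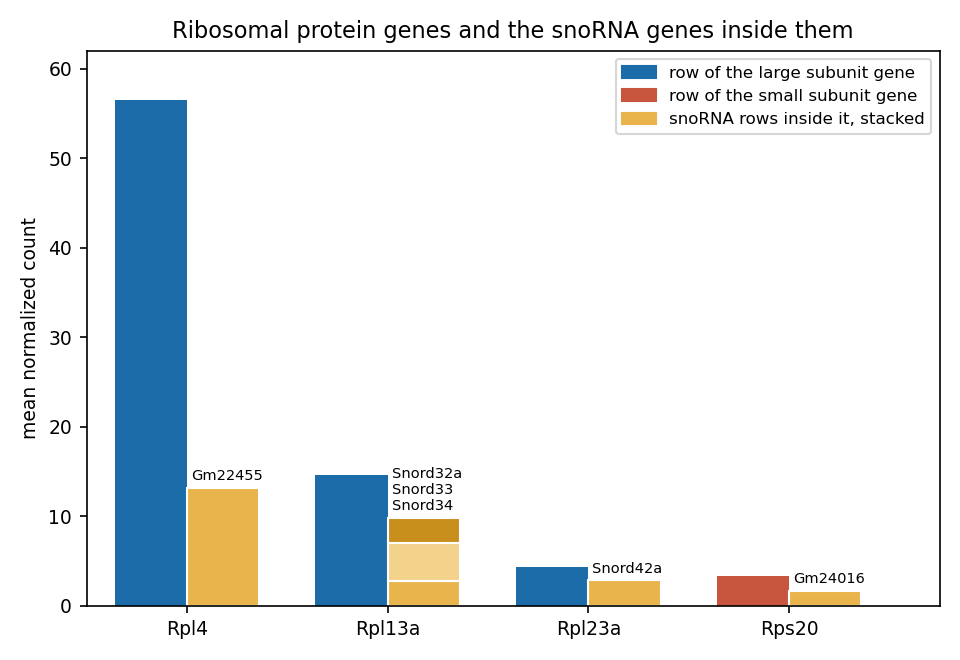
Mean normalized count of 4 members with a snoRNA row inside (left bars, blue for the large and red for the small subunit) and of those snoRNA rows, stacked (right bars, labelled from top to bottom). The right bar reaches 67.2% of the left one in Rpl13a and 23.4% in Rpl4.

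Whether reads of an inner snoRNA were also counted for its host was not tested. No inner row was higher than its host. Over all classes of small RNA, 79 rows lay inside a protein-coding gene with a row, in 60 hosts, and in 79 of the 79 pairs the inner mean was at or under that of the host. For 24 snoRNA pairs the inner row came to a median of 29.2% of the host, and for 42 miRNA pairs to 44.2%. If the snoRNA rows are subtracted from their hosts, Rpl4 keeps 43.3, Rpl13a 4.81, Rps20 1.60 and Rpl23a 1.49. The ratio of host members to other members is then 1.20, and the members' share of all counts 0.101%. Rows on opposite strands of the same bases had equal means in both cases found, Mir451a and Mir451b with 15.1 each and Mir30e and Mir30f with 7.64 each. Overlaps of the members with other protein-coding genes were listed on either strand.

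Of the members 14 overlapped another protein-coding gene, and for 8 of them that gene had a row. Rpl13 (mean 3.02) lies within Gm20388, a gene model of 4435 kb on the same strand with a mean of 976. Rps18 (4.56) overlaps Vps52 (26.4) by 190 bases on the opposite strand. The other overlapping rows had means between 3.23 for Tlcd1, beside Rpl23a, and 25.3 for Osbpl10. How reads in shared bases were assigned is not given in the sources used here.

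Rows outside the members that repeat their sequence were found for 14 members. These were 31 rows, each with at least 50% of its 22-base stretches in a member, and 29 of them are annotated or named as pseudogenes. Of these 29, 6 are classed as protein-coding in the table. The pseudogene rows had a summed mean of 85.9, which is 0.0401% of all rows. The copy had the higher mean in 5 of 31 pairs and the member in the others. For Rps18, which sits in the head of the small subunit, Rps18-ps3 had 5.04 and Gm10260 4.58 against 4.56. The other copies above their member were Rps10-ps2 (3.90 against 3.32), Gm4149 (3.91 against 3.58 of Rpl37a) and Rps16-ps2 (3.05 against 2.97).

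Some copies cannot be told from the member by any of their stretches. All stretches of Rps12-ps3 (3.53) and Rps12l1 (3.42) occur in Rps12, which had a mean of 5.89. The same holds for Rps16-ps2 and for Rpl15-ps3, which had 2.19 against 3.22 of Rpl15. For 2 members over 50% of their own stretches occur in other rows, Rps27rt with 95.9% and Rplp1 with 79.3%. Gm10073, with a mean of 1.77, has 79.2% of its stretches in Rplp1. The means of these genes are uncertain, since a read of 22 bases in such a stretch has more than 1 possible origin.

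**Figure D5:**
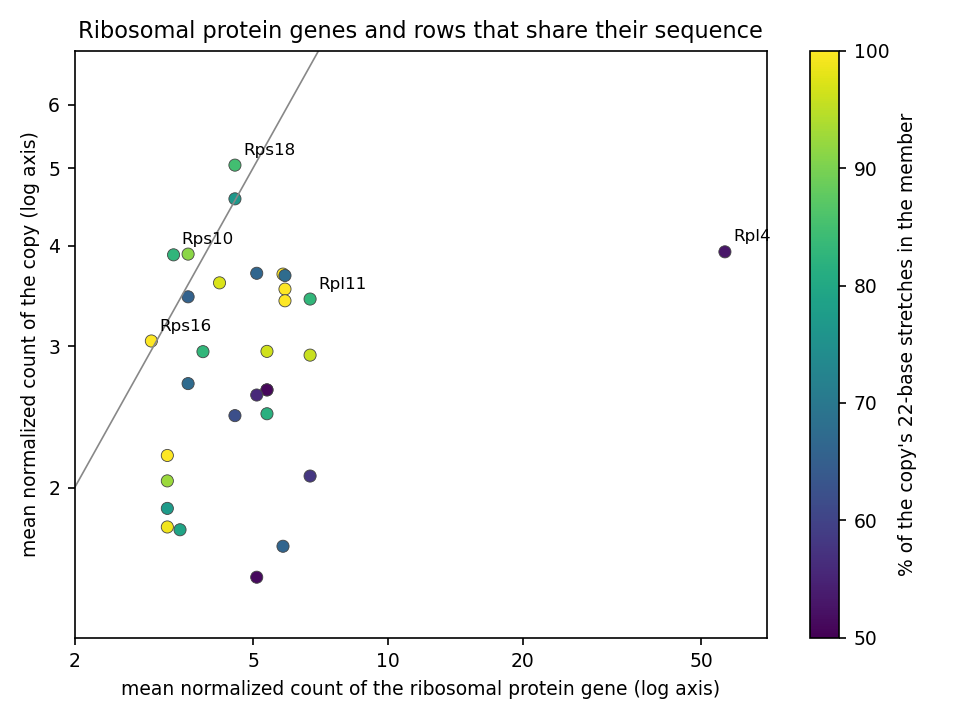
Mean normalized count of each of the 31 copies against that of the ribosomal protein gene whose sequence it shares, both on log axes, coloured by the percent of the copy's 22-base stretches found in that gene. The grey line marks equal means, and 5 points lie above it, 2 of them copies of Rps18.

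The other genes of protein synthesis gave a background for these levels. Of 39 translation factors listed 25 had a row, with a median mean of 5.21 and a median of 1.21 per kb of exon. The highest per kb of exon were Eef1a1, the factor that brings charged tRNA to the ribosome, with 16.1 and Btf3, part of the complex that binds new peptides, with 6.69. The lowest were Naca with 0.494 and Eif2s2 with 0.365 per kb of exon. Of 34 ribosome assembly genes 15 had a row, with a median of 0.986 per kb of exon, between 1.67 for Wdr43 and 1.60 for Sbds at the top and 0.260 for Polr1a and 0.247 for Wdr12 at the bottom. Per kb of exon the members' median of 2.04 was thus above both lists, and Rpl4 was above every translation factor with a row. This order depends on the division by length. Before it, the members' median mean of 3.55 was under that of the translation factors and close to the 3.54 of the assembly genes. The median exon length was 2.02 kb in the members, 4.33 kb in the translation factors and 4.32 kb in the assembly genes.

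Of 78 mitochondrial ribosomal protein genes 13 had a row, with a median mean of 5.46 and a median of 1.32 per kb of exon. Their median exon length was 4.36 kb. They thus lay under the members' median per kb of exon, and above the members' 3.55 before division by length. Rack1, a ribosomal protein of the small subunit whose symbol lies outside the rule, had a mean of 6.96 (1.36 per kb of exon). Sarcomere genes had a median of 2.01 per kb of exon in the 16 of 22 with a row, close to that of the members. Their highest were Myh7 with 109 and Myh6 with 63.1 per kb of exon, and their lowest Tnnt2 with 0.622 and Myom1 with 0.451. Per kb of exon Myh7 and Myh6, the myosin heavy chains of the heart, were thus above every ribosomal protein gene, while Tnnt2 and Myom1 were below all 42. Before division by length the sarcomere median was 7.71 and that of the members 3.55. Tnnt2 with 4.82 and Myom1 with 4.71 then lay above the members' median. Whether reads of any small RNA gene inside the sarcomere genes were counted for them was not tested.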

How the data were processed

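Small RNA of 6 hearts was sequenced, 3 ADAR2-/- and 3 wild type, with the groups taken from the labels. Per the labels and the methods, the authors removed adaptors with cutadapt, used Bowtie for mapping and DESeq for the genotypes, and the labels name the build mm9. A further paragraph of the methods describes mapping to mature microRNA sequences with NextGenMap, and whether it bears on this table is not stated. Versions and the counting of shared reads are not given in the sources used here. The signal the authors deposited is the mean over all samples of read counts divided by a size factor per library. The other columns hold the authors' own comparison of the genotypes (fold changes, a standard error, a statistic and p-values) and were not used. The column used therefore gives no depth per sample, of which the methods state only a minimum, no genotype was compared, and no test was run.

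Of the 10065 Ensembl identifiers 10005 had an entry in GENCODE M21 (GRCm38), which gave names and lengths. The table holds no coordinates, so those printed are of that annotation and may differ from the build the reads were mapped to. Lengths are unions of exons. A snoRNA gene was counted inside a gene where it lies within its span on the same strand. Sequence sharing was the percent of 22-base stretches of a row's transcripts found in a member's, with a minimum of 50%. The steps were tested on made-up genes with known answers. The members and lists were chosen with earlier results of these data known. The text names the 8 highest and 5 lowest members per kb of exon, the 3 highest means, the members of the stalk, 5S, peptidyl transferase and paralog lists, hosts of a snoRNA row, equal means, and the 2 highest and 2 lowest of each list. Some genes that these rules select are not reported here. Other genes named as ends of a range, exceptions, overlaps or copies were picked once their values were known. The scripts ran under Python 3.11.15 with pandas 2.3.3, numpy 2.4.6, matplotlib 3.10.9 and scipy 1.17.1.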

Additional observations from a re-analysis of the deposited data

How the results depend on the processing

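No paired analysis was possible because values per sample are not in the columns used here, and for the same reason leaving out a replicate and another pseudocount were not run. With rows of a mean of at least 10 alone, 3 members were left, whose median was 19.6 in place of 3.55. Under this filter the ratio of large to small subunit was 1.81 in place of 0.94, and that of members to protein-coding genes per kb of exon 2.35 in place of 1.5. The latter ratio was 9.26 per kb of span, where the lowest listed mean sets the order, and 0.52 when levels were not divided by length, which turns its direction. The ratio of snoRNA hosts to other members was 2.64 in place of 1.40 when only snoRNA genes with a row were counted. This setting left 5 hosts. It picks them by a level in the same libraries, and each inner mean was at or under that of its host. Without Rpl4 the ratio was 1.25. Other alternatives moved a value by less than 1.5 times: without paralogs, without snoRNA hosts or shared members, without Rps19bp1, with coding or longest transcript length, with other denominators of the share (0.101% to 0.157%), and with stretches of 18 or 30 bases (32 and 25 rows). The values per kb of span, the subunit and host ratios per kb of exon, the level not divided by length, the settings of snoRNA rows, the genes of at most 10 kb and the omission of Rpl4 or Rps19bp1 were added after seeing the data. Most means are under 10 and have no error, so the order of neighbouring genes cannot be judged.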
